A study of Mus musculus with 10 samples.

Results

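Mitochondria of the heart take up calcium through the uniporter, a channel of the inner membrane, and return it to the cytosol through a sodium-dependent exchanger. Calcium inside the matrix stimulates dehydrogenases that feed the respiratory chain, so the uniporter is a link between the beat-to-beat calcium of cardiomyocytes and their energy supply, and an excess of matrix calcium is a known trigger of cell injury. The transcripts followed here were the 8 genes Mcu, Mcub, Micu2, Micu3, Smdt1, Mcur1, Letm1 and Slc8b1, taken by symbol from the 57185 genes with counts. Mcu encodes the pore of the uniporter, Mcub a pore paralog that lowers its activity, Smdt1 (EMRE) the small subunit that couples the pore to its gatekeepers, Micu2 and Micu3 EF-hand gatekeepers that set its calcium threshold, and Mcur1 a regulator of uniporter assembly. Letm1 encodes an inner membrane protein of cation and proton exchange, and Slc8b1 (NCLX) the sodium/calcium exchanger.

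Poly(A) RNA was sequenced from the apical left ventricle of 10 male mice that lack muscle LIM protein (Csrp3), a model of dilated cardiomyopathy, and that carry floxed Rrad alleles. Rrad encodes RAD, an inhibitor of the L-type calcium channel. The 5 MLPKO mice (MLPKO-RADfl/fl) carried no Cre, and the 5 cRADΔ/Δ-MLPKO mice carried MYH6-MerCreMer, a tamoxifen-inducible Cre under a cardiomyocyte promoter. Both groups received 100 mg/kg tamoxifen once at 10 weeks of age and were 16 weeks old by the labels, whereas collection is also described as 1 month after the dose, and these times do not match exactly. The Cre transgene, its activation and the RAD deletion cannot be told apart. The comparison asked which uniporter and exchanger transcripts differ when RAD is removed from cardiomyocytes of failing hearts.

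Libraries held 33457406 to 49965101 counts, and MLPKO mouse 2 lay apart from the others on the first principal component (55.7 against -24.0 to 22.5). Rrad did not pass the test (log2 fold change -0.38 ± 0.20 SE, edgeR adjusted p = 0.29), nor did Csrp3 (-1.08 ± 0.29, edgeR adjusted p = 0.0667, DESeq2 adjusted p = 0.0362). Although the labels name a knockout of Csrp3, it had 41730 to 134800 normalized counts in MLPKO and 28550 to 48660 in cRADΔ/Δ-MLPKO. A count over the whole gene does not show whether reads came from the deleted part, so neither gene checked the labels. The 7 cardiomyocyte markers, which are not all specific to the ventricle, summed to 39210 to 61260 CPM (counts scaled to library size). The atrial markers Myl4 and Myl7 summed to 2.75 to 6.16 CPM in MLPKO and 2.24 to 24.2 CPM in cRADΔ/Δ-MLPKO, and Sln, which did not pass the filter, had at most 12 counts in any mouse. Among all genes tested, edgeR called 2.74% and DESeq2 called 9.65%. Of the 7 cardiomyocyte markers 6 had fitted values below 0, and edgeR called Tnnt2, which fell (-0.57, edgeR adjusted p = 0.0185), and DESeq2 called 3. All 6 macrophage markers had fitted values above 0 and an unadjusted p under 0.05, as 21.6% of all genes tested had; edgeR called none of them and DESeq2 called 3, with summed levels of 67.8 to 102.7 CPM in MLPKO and 87.9 to 157 CPM in cRADΔ/Δ-MLPKO. All 4 endothelial markers were likewise fitted above 0 with an unadjusted p under 0.05, and edgeR called none and DESeq2 called 2 (609 to 688 CPM against 705 to 829 CPM, without overlap). Of the 5 fibroblast markers neither tool called any and none had an unadjusted p under 0.05. Of the 4 mural cell markers Rgs5 rose (0.44, edgeR adjusted p = 0.0319). Cspg4 was fitted lower and not called (-0.74, edgeR adjusted p = 0.151), and Myh11 and Pdgfrb stood at 0.01 and -0.01. In RNA from whole tissue, fewer cells of a type and less RNA per cell cannot be told apart.

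Micu2 was lower in the cRADΔ/Δ-MLPKO hearts, by 19.1%, and was the only 1 of the 8 genes that passed the test. The pore Mcu, its partner Smdt1, the assembly factor Mcur1, the exchanger Letm1 and gatekeeper Micu3 had rounded log2 fold changes of -0.05 to -0.01. The fitted values of Slc8b1 and Mcub lay above 0 and did not pass the test. Over all 13453 genes tested, 2.74% were called in either direction at an edgeR adjusted p under 0.05, and 1.80% were called lower. The median fitted log2 fold change was -0.01 over the 8 genes and 0.01 over all genes tested, and 6 of the 8 and 47.9% of all genes were fitted below 0.

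**Figure D1:**
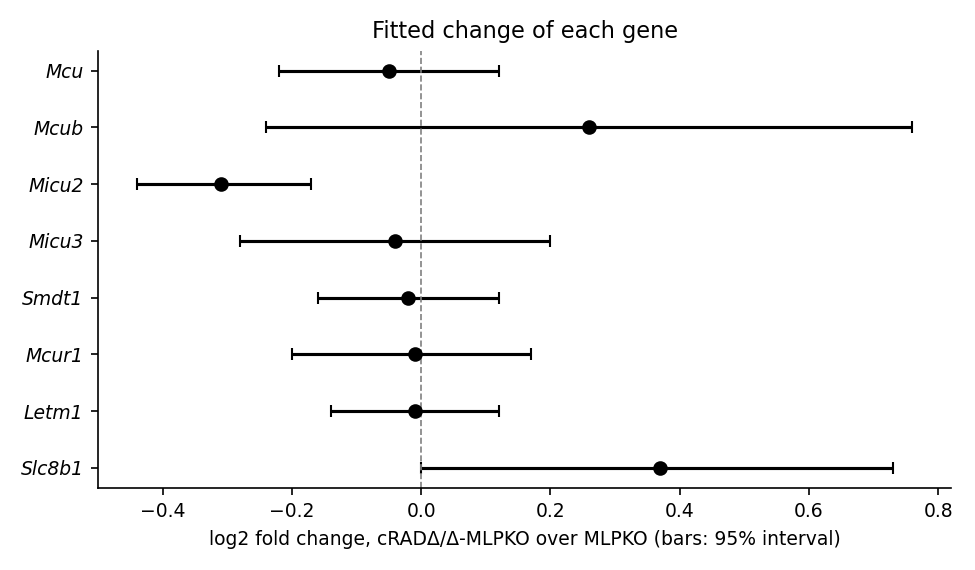
Fitted log2 fold change of each gene, cRADΔ/Δ-MLPKO over MLPKO, with 95% intervals from the edgeR fit (5 mice per genotype). The interval of Micu2 runs from -0.44 to -0.17, and those of Mcu, Mcub, Micu3, Smdt1, Mcur1 and Letm1 span 0.

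Because Micu2 was the gene that changed and Mcu encodes the pore it gates, the 250 bases before their annotated starts are shown, from RefSeq on GRCm38.p6 and read 5′ to 3′ on the minus strand. The Micu2 window is chr14:57999263-57999512 and the Mcu window chr10:59616693-59616942. Capitals mark the GC box GGGCGG and the CCAAT box CCAAT on either strand.
Micu2: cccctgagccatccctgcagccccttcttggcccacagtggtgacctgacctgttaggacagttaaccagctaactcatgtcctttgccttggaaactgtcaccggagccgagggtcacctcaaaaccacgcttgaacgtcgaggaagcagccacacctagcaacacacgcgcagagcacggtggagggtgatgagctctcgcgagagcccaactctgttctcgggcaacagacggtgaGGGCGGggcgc
Mcu: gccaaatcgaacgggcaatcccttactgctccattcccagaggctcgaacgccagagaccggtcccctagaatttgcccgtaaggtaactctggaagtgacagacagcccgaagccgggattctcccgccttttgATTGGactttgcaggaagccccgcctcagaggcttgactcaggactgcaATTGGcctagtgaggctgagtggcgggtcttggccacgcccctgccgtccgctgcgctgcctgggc
Micu2 held 1 GC box and no CCAAT box, and Mcu held 2 CCAAT boxes and no GC box. Across 32851 such windows, 32.7% held a GC box and 33.8% a CCAAT box. GC content was 60.4% for Micu2 and 60.8% for Mcu, against a median of 52.4% over all windows. Of the 8 genes 6 were matched in the promoter table. A match describes the letters only.

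In the gene annotation on GRCm39, Micu2 (ENSMUSG00000021973) is a protein-coding gene at chr14:58153706-58236767 on the minus strand. In the MLPKO mice 1 to 5, the normalized counts of Micu2 were 5965, 6141, 5249, 5138 and 5996. In the cRADΔ/Δ-MLPKO mice they were 4776, 4574, 4362, 4548 and 4794. Every cRADΔ/Δ-MLPKO mouse lay below every MLPKO mouse, and groups that do not overlap were found for 6.62% of all genes tested. The means were 5698 ± 467 and 4611 ± 179 (SD, n = 5 each), a log2 fold change of -0.31 ± 0.06 SE with a 95% interval of -26.5% to -10.9% (edgeR adjusted p = 0.0319). DESeq2, which called 9.65% of genes, gave an adjusted p of 0.000563, the lowest over the alternatives. The call of Micu2 was lost when any of 6 of the 10 mice was left out: the edgeR adjusted p was 0.0776 and 0.0807 without MLPKO mouse 1 and 5, and 0.0659, 0.0788, 0.0774 and 0.0728 without cRADΔ/Δ-MLPKO mouse 2, 3, 4 and 5. The fitted log2 fold change of Micu2 stayed between -0.34 and -0.28 in all 10 fits without 1 mouse, and without MLPKO mouse 2 the adjusted p was 0.0442. Its unadjusted edgeR p was at most 0.00169 in these 10 fits. In the 6 fits without the call, 47 to 142 genes were called over all genes tested, against 369 with every mouse.

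Micu2 was also set beside the summed counts of 4 lists within each library, a comparison chosen after its values had been seen. Per 1000 counts of the 16 mitochondrial content genes, Micu2 had 9.18 ± 1.10 counts in MLPKO and 6.92 ± 0.599 in cRADΔ/Δ-MLPKO (SD, n = 5 each), again without overlap. Per 1000 counts of the 7 cardiomyocyte markers, it had 2.42 ± 0.106 and 2.42 ± 0.231, and the groups overlapped. Micu2 was therefore lower against mitochondrial transcripts but level with the cardiomyocyte marker sum. Most of that sum was Myh6 (means of 36500 CPM in MLPKO and 29900 CPM in cRADΔ/Δ-MLPKO). Against -0.31 for Micu2, the log2 fold changes were -0.57 for Tnnt2, -0.43 for Actn2, -0.29 for Myh6 and -0.26 for Myl2. Those of Ryr2, Pln and Tnni3 were -0.13, -0.11 and 0.13, so the level ratio held for the sum and not for each marker. The cardiomyocyte sum itself was 52610 to 61260 CPM in MLPKO and 39210 to 51890 CPM in cRADΔ/Δ-MLPKO, and the mitochondrial sum 13730 to 15850 and 15120 to 17960 CPM. Per 1000 endothelial marker counts, Micu2 had 211 ± 21.4 and 147 ± 13.7 counts, without overlap, and per 1000 macrophage marker counts 1770 ± 354 and 1010 ± 222, with overlap. With Myh6 left out of the cardiomyocyte marker sum, the Micu2 values per 1000 counts were 6.78 ± 0.512 and 6.79 ± 0.637. With genotype means removed, Micu2 correlated with the sum of all 7 cardiomyocyte markers at r = 0.56 over 10 mice. Smdt1 had a higher r with this sum (0.66), and the other members had negative values, down to -0.57 for Slc8b1. The part of these cell types in the Micu2 difference was not tested.

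Slc8b1 (chr5:120649173-120672102, plus strand) returns calcium to the cytosol. It had normalized counts of 307, 254, 405, 347 and 206 in the MLPKO mice and of 333, 405, 458, 408 and 356 in the cRADΔ/Δ-MLPKO mice. MLPKO mouse 5 was the lowest of the 10 and cRADΔ/Δ-MLPKO mouse 3 the highest, and the groups overlapped. The means were 304 ± 77.6 and 392 ± 49.1 (SD, n = 5 each). The fitted log2 fold change was 0.37 ± 0.17 SE with a 95% interval of 0.14% to 65.9%, and it did not pass the test (edgeR adjusted p = 0.23, range 0.11 to 0.389 over the alternatives). Its unadjusted p from the edgeR fit over all genes was 0.0489, under 0.05 as for 21.6% of all genes tested.

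Mcub (chr3:129707425-129763869, minus strand), the paralog that dampens the pore, was the least counted gene, with 44 to 116 raw counts per library. Its normalized counts were 82.2, 74.7, 76.7, 65.1 and 64.8 in MLPKO. In cRADΔ/Δ-MLPKO they were 54.4, 61.2, 121.9, 89.3 and 108.5. Mice 1 and 2 of this group lay below all MLPKO mice and mice 3, 4 and 5 above all of them. The coefficient of variation was 33.6% against 10.5%, a difference in spread that was not tested. The log2 fold change was 0.26 ± 0.23 SE (edgeR adjusted p = 0.551), with a 95% interval of -15.1% to 69.2%. The log2 fold change ranged from 0.12 without cRADΔ/Δ-MLPKO mouse 3 to 0.39 without mouse 1 of that group. Its exons share 328 bases with Casp6, an effector caspase gene on the opposite strand (0.44 ± 0.18 SE, edgeR adjusted p = 0.178), and the strand setting of the counting is not given in the sources used here.

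The balance of Mcub to Mcu does not depend on scaling between libraries. Per Mcu count, Mcub had 0.0970, 0.0995, 0.103, 0.101 and 0.0844 counts in MLPKO. The cRADΔ/Δ-MLPKO mice had 0.0748, 0.0830, 0.154, 0.130 and 0.159. The ratios of cRADΔ/Δ-MLPKO thus lay on both sides of the MLPKO range of 0.0844 to 0.103. With 44 to 116 raw Mcub counts per library, counting noise was not separated from spread between mice. The difference in spread between genotypes was not tested. The log2 ratio was -3.36 ± 0.11 and -3.12 ± 0.51 (SD, n = 5 each), a difference of 0.25 (two-sided exact permutation test, p = 0.333, smallest possible 0.00794). The difference was 0.13 and 0.14 without cRADΔ/Δ-MLPKO mouse 5 and 3, 0.40 without mouse 1 of that group (exact p = 0.0952) and 0.39 between medians, and no alternative passed the test. With genotype means removed, Mcub correlated with the summed macrophage markers at r = 0.50 over 10 mice, whose values share libraries and depth. Its r with the summed cardiomyocyte markers was -0.48. With the macrophage sum Mcur1 had r = 0.41, Slc8b1 0.37 and Letm1 0.34, while the values of Mcu, Micu2, Micu3 and Smdt1 were negative. The part of macrophage RNA in the Mcub counts was not tested.

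Mcu (chr10:59282806-59452522, minus strand), the pore, had normalized counts of 848, 751, 742, 647 and 767 in MLPKO and of 727, 737, 792, 685 and 681 in cRADΔ/Δ-MLPKO. The groups overlapped, and the log2 fold change was -0.05 ± 0.08 SE (edgeR adjusted p = 0.748), with a 95% interval of -14.3% to 8.46%. Per Mcu count, Micu2 had 7.04, 8.18, 7.08, 7.94 and 7.82 counts in MLPKO and 6.57, 6.21, 5.51, 6.64 and 7.04 in cRADΔ/Δ-MLPKO. The ratio was thus 7.61 ± 0.522 and 6.39 ± 0.576 (SD, n = 5 each), and the groups met at 7.04. Slc8b1 had 0.410 ± 0.124 and 0.541 ± 0.0543 counts per Mcu count, with overlap. These ratios were not tested.

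**Figure D2:**
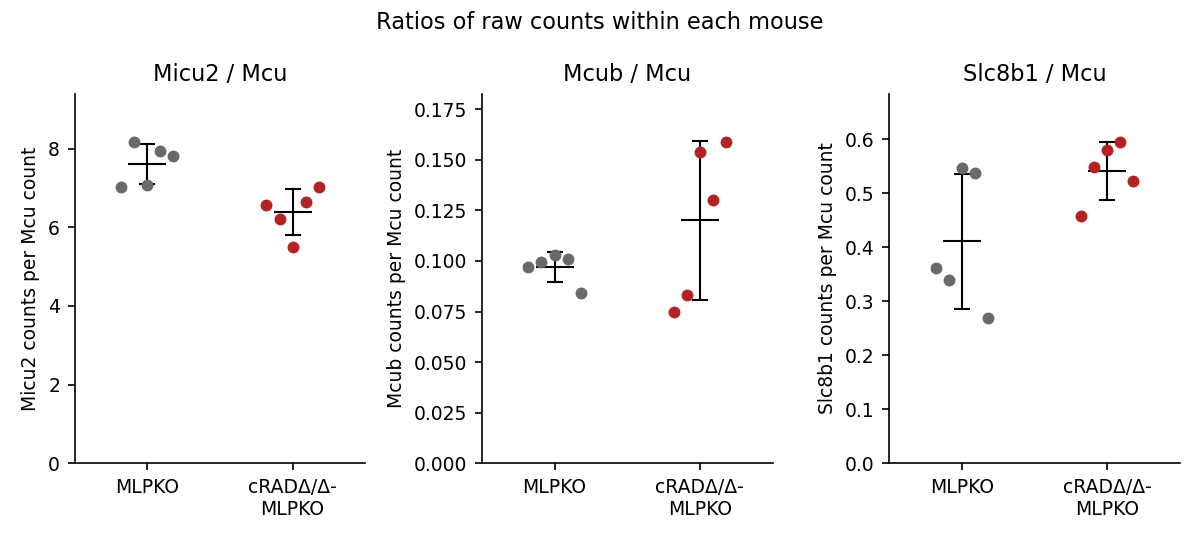
Raw counts of Micu2, Mcub and Slc8b1 per raw count of Mcu in each mouse (points), with the mean and SD of 5 mice per genotype (bars). The Micu2 ratios meet at 7.04, and the Mcub ratios of cRADΔ/Δ-MLPKO lie on both sides of those of MLPKO.

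Smdt1 (chr15:82223160-82235678, plus strand), which holds the gatekeepers to the pore, had normalized counts of 3855, 3989, 3948, 3445 and 4293 in MLPKO and 3836, 4036, 3774, 4004 and 3639 in cRADΔ/Δ-MLPKO. The second group lay within the range of the first (log2 fold change -0.02 ± 0.06 SE, edgeR adjusted p = 0.903), and the 95% interval was -10.2% to 8.60%. Its exons share 462 bases with Ndufa6, a complex I subunit gene on the opposite strand (0.21 ± 0.07 SE, edgeR adjusted p = 0.102), and 245 bases with Pheta2 on the same strand. Micu3 (chr8:40760499-40839367, plus strand) is the gatekeeper known best from neurons. It had 217, 242, 271, 213 and 215 normalized counts in MLPKO and 192, 233, 238, 223 and 240 in cRADΔ/Δ-MLPKO. These also overlapped (-0.04 ± 0.11 SE, edgeR adjusted p = 0.874), with a 95% interval of -17.4% to 14.6%.

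Mcur1 (chr13:43691869-43713738, minus strand), the assembly factor, had 3368, 2708, 3443, 4008 and 3370 normalized counts in MLPKO. In cRADΔ/Δ-MLPKO it had 3320, 3277, 3384, 3395 and 3399. The means were close, at 3379 ± 461 and 3355 ± 54.0 (SD, n = 5 each), but the coefficient of variation was 13.6% in MLPKO, where mouse 2 was low and mouse 4 high, and 1.61% in cRADΔ/Δ-MLPKO. The 95% interval of the change was -12.6% to 12.8% (edgeR adjusted p = 0.959). Letm1 (chr5:33897011-33940209, minus strand) showed the wider spread in the other group, with normalized counts of 4650, 4445, 4751, 4718 and 4716 in MLPKO and 4251, 4440, 5132, 4933 and 4362 in cRADΔ/Δ-MLPKO. Its change was -0.01 ± 0.06 SE on the log2 scale (edgeR adjusted p = 0.947), with a 95% interval of -9.53% to 9.00%. The difference in spread between genotypes was not tested for either gene.

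**Figure D3:**
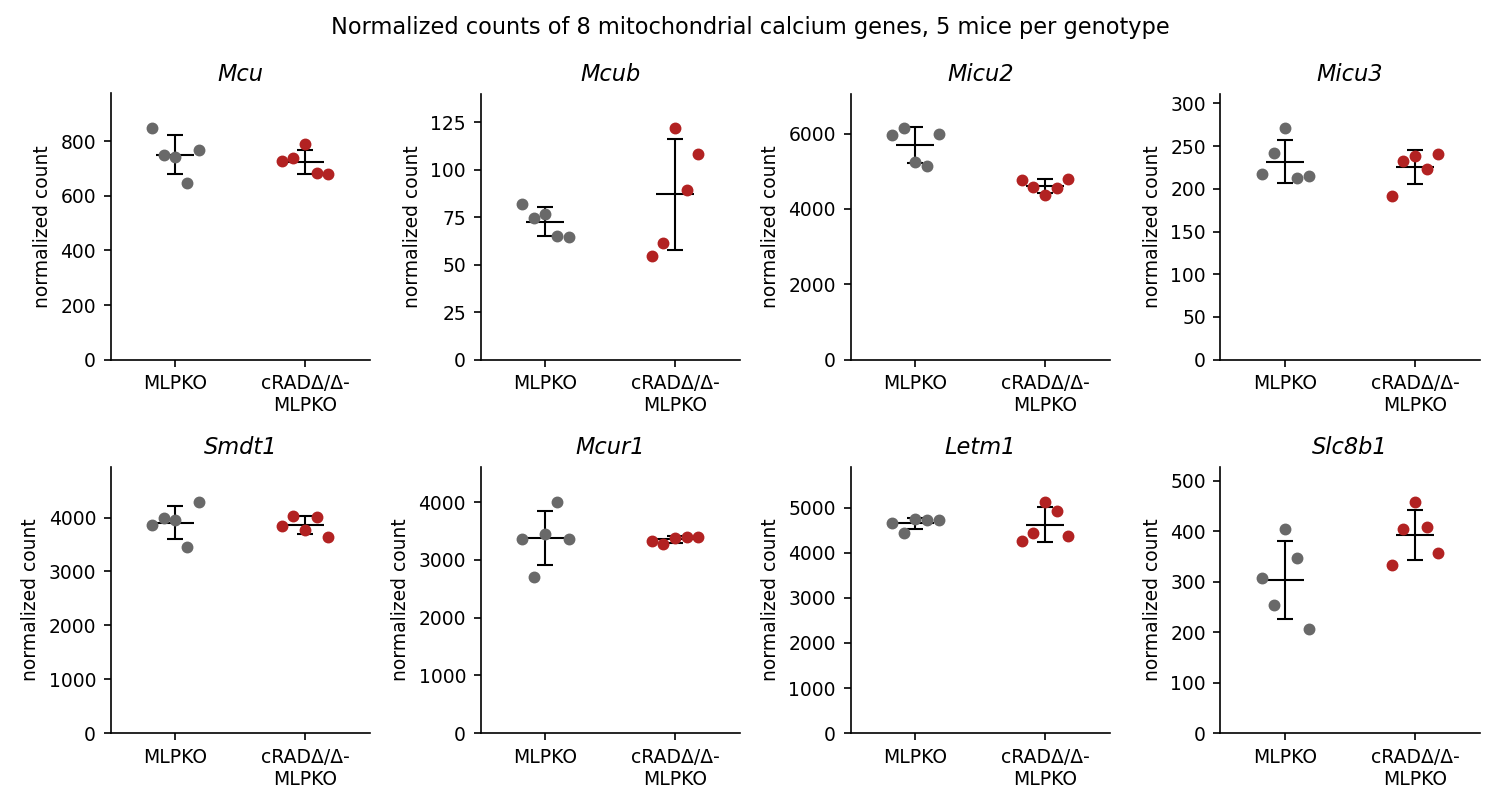
Normalized counts (TMM, scaled to the mean effective library) of the 8 genes in each mouse, with the mean and SD of 5 mice per genotype. Micu2 alone has no overlap between genotypes, Mcub and Slc8b1 overlap, and Mcur1 is spread in MLPKO and tight in cRADΔ/Δ-MLPKO.

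The 8 genes spanned a wide range of levels. Per kilobase of exon, over all 10 mice, Smdt1 was highest at 21.8 ± 1.31 CPM (SD), followed by Micu2 at 14.1 ± 1.81, Letm1 at 10.5 ± 0.613 and Mcur1 at 9.56 ± 0.879. The pore Mcu followed at 1.42 ± 0.112, then Slc8b1 at 1.25 ± 0.276, Micu3 at 0.875 ± 0.0826 and Mcub at 0.663 ± 0.179. Within genotypes Mcu and Slc8b1 stood at 1.45 ± 0.138 and 1.09 ± 0.279 in MLPKO and at 1.40 ± 0.0870 and 1.41 ± 0.176 in cRADΔ/Δ-MLPKO (SD, n = 5 each), so their order was not the same. Letm1 and Mcur1 overlapped in their ranges over the mice, and so did each neighbouring pair from Mcu to Mcub in this order. With the longest transcript as the length, the order was the same and the level of Mcu rose to 3.61 CPM per kilobase, and the ranges of Micu2 (18.2 to 25.7) and Letm1 (19.0 to 22.9), which were apart by exon length, overlapped. Micu2 transcripts thus stood well above those of the pore on both lengths.

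**Figure D4:**
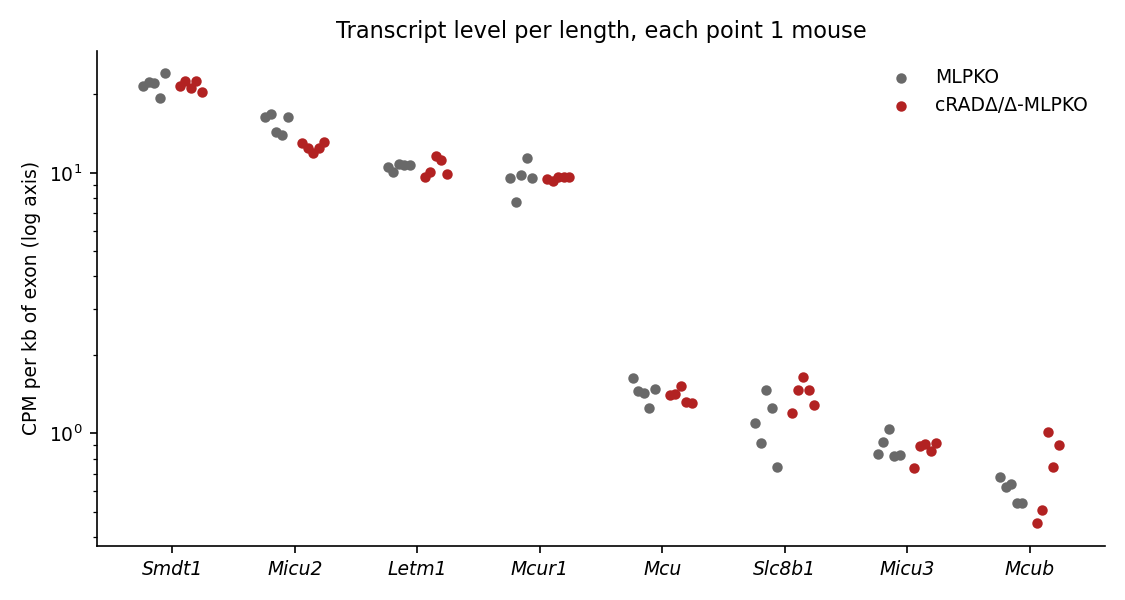
Level of each gene in CPM per kilobase of exon (log axis), each point 1 mouse, 5 per genotype, ordered by the mean over all mice. Smdt1, Micu2, Letm1 and Mcur1 lie above 7 CPM per kilobase in every mouse, and Mcu, Slc8b1, Micu3 and Mcub lie below 1.7.

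Variation among mice was described after the genotype means were removed, as Pearson r of log2 CPM over 10 mice that share library, depth and scaling. Micu2 moved against Slc8b1 (r = -0.83) and Mcur1 (r = -0.70), while Mcub moved with Letm1 (r = 0.58) and Micu3 (r = 0.56). These pairs had the strongest r among all pairs of the 8 genes and were not tested. The spread behind r was uneven between genotypes. The coefficient of variation of Mcur1 was 13.6% in MLPKO and 1.61% in cRADΔ/Δ-MLPKO, so its r with Micu2 rested mostly on the MLPKO mice. It was 2.65% and 8.34% for Letm1 and 10.5% and 33.6% for Mcub, so their r rested mostly on the cRADΔ/Δ-MLPKO mice. Within MLPKO, mouse 2 was highest in Micu2 and lowest in Mcur1 (6141 and 2708 normalized counts). MLPKO mouse 4 was the reverse (5138 and 4008). Smdt1 moved with the summed cardiomyocyte markers (r = 0.66) and against the summed macrophage markers (r = -0.79). The most alike of 13452 genes were Herc3 and Apobec2 for Micu2 (r = 0.96 each), Tenm4 (0.96) and Wdr54 (0.95) for Mcu, and Rgl2 and Mgat3 for Slc8b1 (0.95 each). For Mcub these were Unc45bos (0.96) and H2-DMb2 (0.94), the latter an MHC class II gene of antigen-presenting cells. The others were Ccnj and Pbld2 for Micu3 (0.93 each), Pin4 and Josd2 for Smdt1 (0.95 each), Entpd5 and Cobll1 for Mcur1 (0.97 each), and Galnt6 (0.95) and Nup205 (0.94) for Letm1. Each of these is the highest of many values, and of the 16 genes Mgat3 was called (0.60, edgeR adjusted p = 0.0238).

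The wider pathway was read from 5 lists with 61 genes, all of which passed the filter. None was called by edgeR, against 2.74% of all genes tested. An unadjusted p under 0.05 was found for 6, against 21.6% of all genes, and DESeq2, which called 9.65% of all genes, called 2, Slc25a5 (an adenine nucleotide translocase, 0.35, adjusted p = 0.0182) and Cox4i1 (cytochrome oxidase subunit IV, 0.19, adjusted p = 0.0361). The median fitted log2 fold change over the 61 genes was 0.05, with 41 above 0 and 20 below, and 52.1% of all genes tested were above 0. Slc25a4, the main translocase of heart muscle, was the most counted gene of the ion transport list (0.00 ± 0.07 SE, edgeR adjusted p = 0.981). Among the 7 genes that process or assemble the uniporter, the median was 0.04 and the most counted was Phb1, a prohibitin scaffold (0.13 ± 0.08 SE, edgeR adjusted p = 0.331). Among the 12 genes of contacts between reticulum and mitochondria, the median was 0.04 and the most counted was Mfn2, a mitofusin (-0.13 ± 0.06 SE, edgeR adjusted p = 0.235). The 12 calcium-sensitive enzymes and carriers had a median of 0.07, and Ogdh, a calcium-stimulated matrix dehydrogenase, led in counts (0.01 ± 0.09 SE, edgeR adjusted p = 0.974). The 16 mitochondrial content genes had a median of 0.06 with 13 above 0, and Atp5f1b of the ATP synthase led in counts (0.12 ± 0.07 SE, edgeR adjusted p = 0.383).

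**Figure D5:**
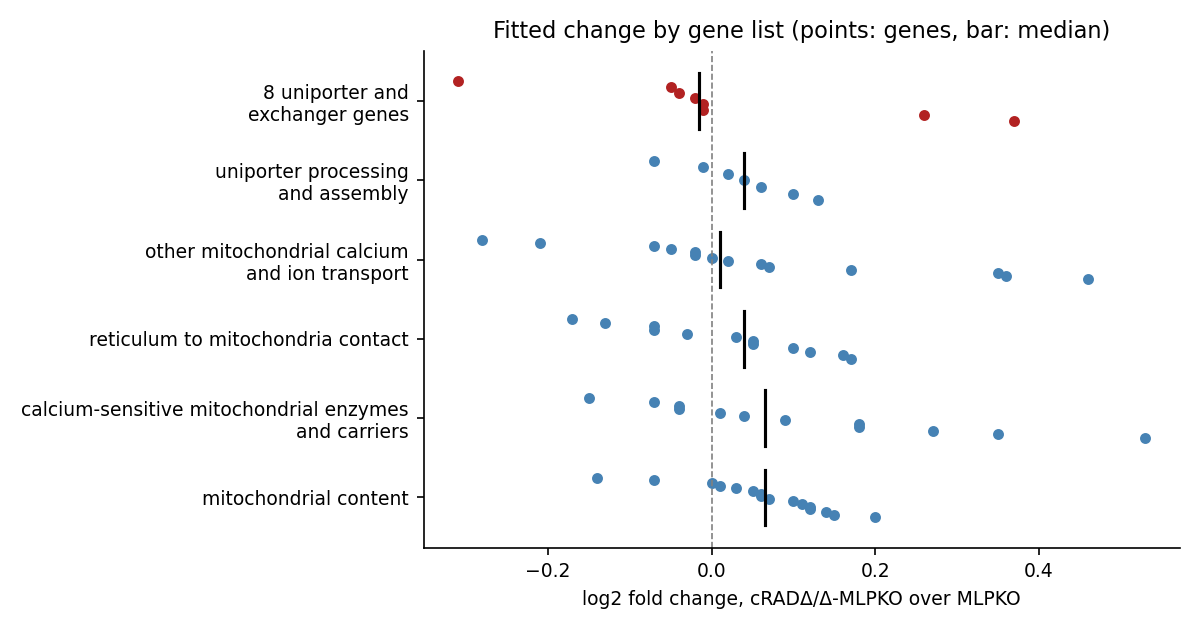
Fitted log2 fold change, cRADΔ/Δ-MLPKO over MLPKO, of the 8 genes (red) and of 61 genes in 5 lists (blue), with the median of each list as a bar. Micu2, at -0.31, lies below every gene of the lists, of which Slc25a23 at -0.28 is the lowest, and the list medians lie between 0.01 and 0.07.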

How the data were processed

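Per the labels and the paper, the authors checked reads with FastQC, aligned them to GRCm39 with STAR and counted them with featureCounts. The deposited values are raw counts per gene. Strand, pair and multimapper settings were not given in the sources used here. Whether reads in exons shared with other genes were counted or dropped is therefore not known. Counts of 1 to 20 were even in 73.7% to 80.3% of cases per library, and the number of counts a read pair gave is not given in the sources used here. The filter followed the study's description: a gene needed more than 10 counts in 6 or more of the 10 libraries, and Gm and Rik genes were dropped. It left 13453 genes, which is more than the study states for its ranked gene list. Counts were tested with edgeR 4.0.16 (quasi-likelihood, TMM, Benjamini-Hochberg, R 4.3.3) on simulated data first and then here. In the simulation edgeR found 87 of 100 changes of log2 size 1 and 49 of 100 of size 0.5, with 7 false calls. DESeq2 found 92 and 62 of these, with 38 false calls. A gene that is not called here can therefore still differ. DESeq2 1.42.0 and limma 3.58.1 were alternatives. Fold changes are cRADΔ/Δ-MLPKO over MLPKO, SEs and 95% intervals come from the edgeR fit, and a gene is called at an adjusted p under 0.05. Normalized counts are TMM-scaled to a mean effective library of 41338610. Levels used exon lengths of GENCODE M39 on the same build, and promoters came from RefSeq. The Mcub to Mcu ratio added 0.5 to each count. The genes named are the 8 members, Rrad, Csrp3, called and most counted genes of each list, and the 2 genes most alike each member. Members and lists were chosen with earlier results of these data known. Each sample is 1 mouse, and no library was identical to another.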

Additional observations from a re-analysis of the deposited data

How the results depend on the processing

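Each of 19 alternative fits (other size factors, no filter on low counts, filterByExpr, Gm and Rik genes kept, DESeq2, limma-voom, robust dispersion, a replicate block, each mouse left out) was compared with the reported one. Micu2 was called in all 9 fits that kept every mouse (adjusted p 0.000563 to 0.0466) and in 4 of 10 that left out 1 mouse, and its log2 fold change stayed between -0.34 and -0.28. No other of the 8 genes was called in any fit. The number of genes called was 369, 1298 with DESeq2, and 47 to 826 with 1 mouse left out. The 8 genes gave 1 call, and 0 to 1 with 1 mouse left out. The pathway lists gave 0 calls, 2 with DESeq2 and 0 to 1 with 1 mouse left out. Near 0 the sign was not settled: upper quartile factors gave 0.0074 for Smdt1, 0.01 for Mcur1 and 0.02 for Letm1. With 1 mouse left out, the log2 fold change ran from -0.07 to 0.03 for Micu3, -0.06 to 0.02 for Smdt1, -0.08 to 0.06 for Mcur1 and -0.04 to 0.02 for Letm1. The longest transcript as length gave levels of 3.61 (Mcu), 21.6 (Micu2), 1.42 (Micu3), 31.4 (Smdt1), 15.3 (Mcur1), 20.7 (Letm1) and 1.69 (Slc8b1) CPM per kilobase. Deviations of same-numbered mice correlated at -0.044 to 0.152. Differently numbered mice were not set beside them, so these values do not settle whether the mice were paired. The replicate block called 281 genes, with a log2 fold change of 0.00013 for Mcur1 and an edgeR adjusted p of 0.0466 for Micu2. Micu2 against the cardiomyocyte marker sum moved by less than the spread between mice without Myh6 or Tnnt2, 2 settings chosen after seeing the data. The cause of these shifts was not tested. Depth limits Mcub most, at 44 to 116 counts per library.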
